A study of Macrobrachium nipponense with 6 samples.

Results

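The muscle miRNAs miR-1 and miR-133 were read in a freshwater prawn, Macrobrachium nipponense, after 24 h in low-oxygen or well-oxygenated water. Probes were chosen by name: all miRNA probes called miR-1 or miR-133 after the species prefix, with any variant letter, arm or suffix, were taken, which gave 15 of the 2546 miRNA probes on the array, 9 of them for miR-1 and 6 for miR-133. The hypoxia group held 3 samples from water at 2.0 ± 0.1 mg O2 per L, lowered with nitrogen gas and held for 24 h. The normoxia group held 3 samples from water at 6.5 ± 0.2 mg O2 per L. Each sample was total RNA of gill, hepatopancreas, muscle and hemocytes together, labelled with Cy3 and read on its own single-colour array. The labels give no animal age, do not say how much muscle went into a pool and do not tie animals to samples, so the p-values here cover only sample-to-sample spread, which may be technical. In such a pool, fewer muscle cells and less of a miRNA per cell cannot be told apart.

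miR-1 is a miRNA of striated muscle in flies and vertebrates, where it is switched on by the myogenic transcription factors and represses genes outside the muscle programme. miR-133 is processed from the same primary transcript as miR-1 in vertebrates and is likewise a muscle miRNA, linked to the balance of myoblast growth and differentiation. Both act mainly through the arm called 3p, and the 5p arm is as a rule the discarded strand. The seed, bases 2 to 8 of the mature miRNA, is the stretch that pairs with target messages.

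The probes were designed on sequences of other arthropods, and the sequences below are the targets the array lists, 5′ to 3′, with the seed in capitals. The first 5 are shown because they alone were detected on all 3 arrays of a group, and they are named after fly, tick, water flea, butterfly and fly miRNAs.
dme-miR-1-3p: uGGAAUGUaaagaaguauggag
isc-miR-1_1ss1TG: gGGAAUGUaaagaaguauggag
dpu-miR-1_L-2R+4: gAAUGUAAagaaguauggaguaaa
hme-miR-133: uGGUCCCCuucaaccagcugua
dpe-miR-133: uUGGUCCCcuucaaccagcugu
The next 3 are examples of the members that passed the detection limit on 1 or 2 arrays only. They are a silkworm variant named for the 3p arm of miR-1, and a 5p arm of each miRNA.
bmo-miR-1b-3p: uGGGAAGUaaggaagcacggaa
dme-miR-1-5p: cCAUGCUUccuugcauucaaua
isc-mir-133-p5_1ss7CT: aGCUGGUUgaagccgggccaaau

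Counted from the 5′ end of dme-miR-1-3p, the tick probe differed by the single change U1G and kept the seed GGAAUGU. The water flea probe began at position 3 of dme-miR-1-3p and ran past its 3′ end, with 20 bases in common, so its own bases 2 to 8 read AAUGUAA. The probe dpe-miR-133 shared 21 bases with hme-miR-133 and began 1 base earlier, which shifts its seed to UGGUCCC. The silkworm probe bmo-miR-1b-3p lay 6 edits from dme-miR-1-3p and had another seed, GGGAAGU. None of the 15 members came closer than 7 edits to a miRNA probe of another name. The first 3 miR-1 probes are thus near copies of one target, as are hme-miR-133 and dpe-miR-133, and such copies are not independent measurements of a miRNA.

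A probe counted as detected on an array when it exceeded its local background by over 3 standard deviations of empty spots. All 3 probes dme-miR-1-3p, isc-miR-1_1ss1TG and dpu-miR-1_L-2R+4 were detected on 6 of 6 arrays. The same held for hme-miR-133, while dpe-miR-133 was detected on 5. It missed the limit on hypoxia 3, where it read 66.7 above background against a limit of 77.0. These 5 met the rule for testing, which was detection on all 3 arrays of at least 1 group.

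The other 10 members were not tested. They comprised all 9 probes of the 5p arms and bmo-miR-1b-3p, and 4 were detected on no array, 4 on 1 array and 2 on 2 arrays. Their readings ran from -11.2 to 151 above background. The highest belonged to isc-mir-133-p5_1ss7CT on hypoxia 3, a 5p arm of miR-133, which also passed the limit on normoxia 2 at 109. The 5p probes above the limit numbered 0, 3 and 1 of 9 on hypoxia 1, 2 and 3 and 1, 2 and 0 on normoxia 1, 2 and 3. On bmo-miR-1b-3p the limit was passed on hypoxia 2, at 31.4, and on no other array. No 5p probe was thus detected on more than 2 arrays, and these values do not bear on prawn 5p arms of another sequence.

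**Figure D1:**
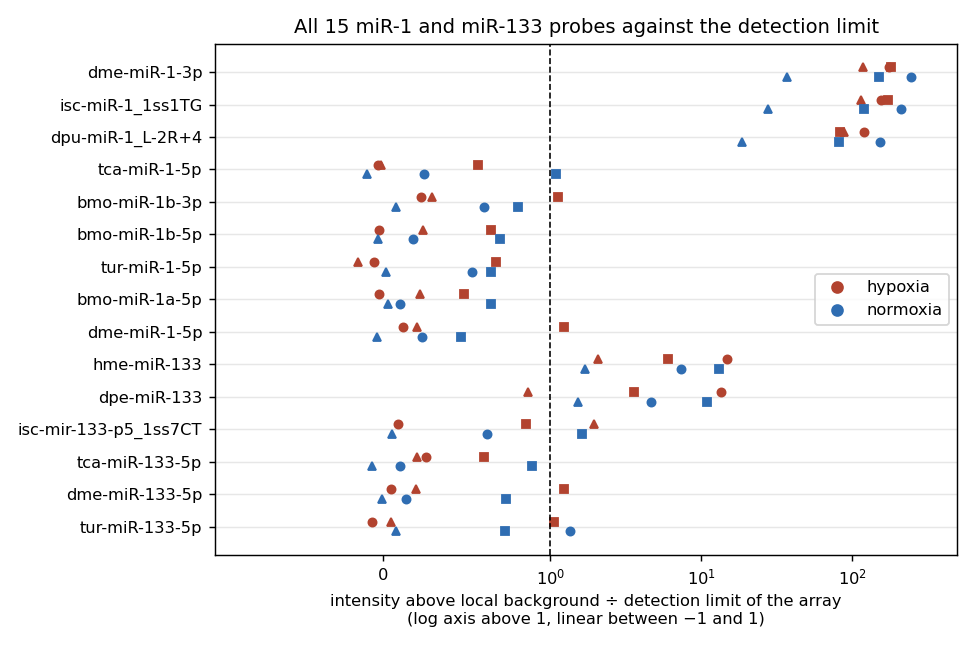
Intensity above local background divided by the array's detection limit (dashed line at 1), for all 15 members, with hypoxia arrays in red above normoxia arrays in blue and circles, squares and triangles for samples 1, 2 and 3. The 3 tested miR-1 probes lie far above the limit on every array. Both tested miR-133 probes lie above it except dpe-miR-133 on hypoxia 3. The other 10, with bmo-miR-1b-3p among them, pass it on 2 arrays at most.

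Before scaling, the lead miR-1 probe, dme-miR-1-3p, read 12860.5, 5004.05 and 9037.49 above background on hypoxia 1, 2 and 3, against 8783.18, 10192.5 and 3517.82 on normoxia 1, 2 and 3. The lead miR-133 probe, hme-miR-133, read 1087.17, 168.14 and 158.37 on hypoxia 1, 2 and 3, against 261.46, 885.34 and 161.66 on normoxia 1, 2 and 3. The miR-1 readings spread 3.66-fold over the 6 arrays and those of hme-miR-133 6.86-fold. Both were highest on hypoxia 1, and both had their high and low arrays in each group. The wider range after quantile scaling was that of dme-miR-1-3p, 1.79 (log2) against 1.34 for hme-miR-133.

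After quantile scaling, dme-miR-1-3p measured 13.59, 12.67 and 13.11 (log2 normalised intensity) on hypoxia 1, 2 and 3, against 13.37, 12.98 and 11.79 on normoxia 1, 2 and 3. The groups overlapped, and normoxia 3 was the lowest of all 6. The mean was 13.12 ± 0.46 in hypoxia and 12.71 ± 0.82 in normoxia (SD, n = 3 each). The change, hypoxia minus normoxia, was 0.41 (log2) with a 95% interval from -0.77 to 1.59 and failed the test (limma, adjusted p = 0.953). It rested on normoxia 3: without that array the change was -0.048.

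The other miR-1 probes gave the same picture. On isc-miR-1_1ss1TG the levels were 13.21, 12.62 and 13.07 on hypoxia 1, 2 and 3, against 13.21, 12.73 and 11.36 on normoxia 1, 2 and 3. Levels of dpu-miR-1_L-2R+4 were 12.83, 11.92 and 12.37 on hypoxia 1, 2 and 3, against 12.83, 12.06 and 10.89 on normoxia 1, 2 and 3. In both, normoxia 3 stood lowest and the groups overlapped; equal values on hypoxia 1 and normoxia 1 come from quantile scaling, which gives equal ranks equal values. Their changes were 0.53 (-0.72 to 1.79) and 0.45 (-0.88 to 1.77), neither past the test (limma, adjusted p = 0.912 and 0.953). Without normoxia 3 they were 0.00091 and -0.062.

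For hme-miR-133 the levels were 9.45, 8.11 and 8.17 on hypoxia 1, 2 and 3, against 8.90, 9.24 and 8.11 on normoxia 1, 2 and 3. One hypoxia array was above every normoxia array and the other 2 lay next to normoxia 3, so the groups overlapped. The mean was 8.58 ± 0.76 in hypoxia and 8.75 ± 0.58 in normoxia (SD, n = 3 each). The change was -0.17 (95% interval -1.36 to 1.03), again not past the test (limma, adjusted p = 0.956). Its sign was not stable: it was 0.070 without hypoxia 2, 0.014 without hypoxia 3, 0.077 without normoxia 2 and 0.098 after cyclic loess scaling.

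The second miR-133 probe, dpe-miR-133, read 9.18, 7.72 and 7.08 on hypoxia 1, 2 and 3, against 8.20, 9.03 and 8.02 on normoxia 1, 2 and 3. Here hypoxia 1 was the highest array and hypoxia 2 the lowest of the 5 on which the probe was detected. The reading on hypoxia 3 was below the detection limit and has no measured order. Over those 5 arrays the probe varied by 1.47 (log2). Its change of -0.42 (-1.89 to 1.04) did not pass either (limma, adjusted p = 0.953), and without hypoxia 3 it was 0.029. It was -0.085 after cyclic loess scaling, -0.74 with plain background subtraction and -0.89 with the log2 ratio of added calibration spots (3M over 3P) as a covariate.

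**Figure D2:**
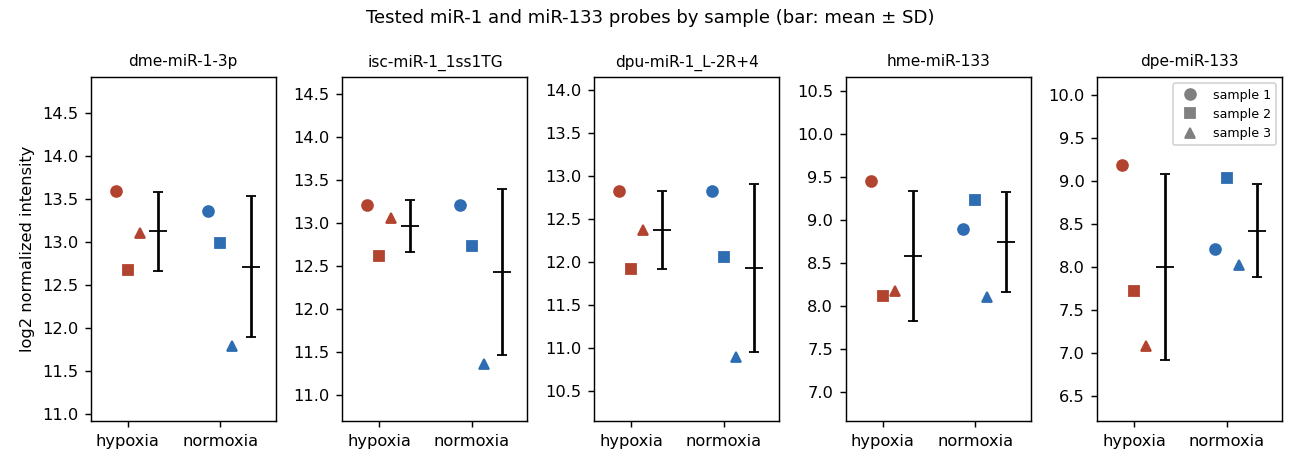
Log2 normalised intensity of the 5 tested members by sample, with hypoxia left of normoxia in each panel, symbols for samples 1 to 3 and a bar for the mean ± SD (n = 3). Each panel spans 4 log2 units around its own mean. Normoxia 3 is lowest in the 3 miR-1 panels, hypoxia 1 is highest in both miR-133 panels, dpe-miR-133 is below its detection limit on hypoxia 3, and the groups overlap in all 5.

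Of the 5 tested members, 0 passed an adjusted p of 0.05, where 0 of all 339 tested probes passed (0%, limma). At an unadjusted p under 0.05 there were also 0 of 5, beside 16 of 339 (4.72%). Over all tested probes this count was 61 without hypoxia 3, 7 without normoxia 2, 73 with array weights and 44 with the calibration ratio as a covariate. Groups that did not overlap were found for 0 of the 5 members, beside 34 of 339 probes (10%). All 3 miR-1 probes lay above 0 and both miR-133 probes below 0. The median change was 0.45 (log2) over the tested miR-1 probes and -0.30 over the tested miR-133 probes. Over all tested probes it was -0.09, and 41.3% of them lay above 0. Standard errors of the members' changes had a median of 0.51, beside 0.39 over all tested probes. With intervals that reach past 1 log2 unit in at least 1 direction, these arrays do not show that the levels of miR-1 or miR-133 were equal in hypoxia and normoxia.

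**Figure D3:**
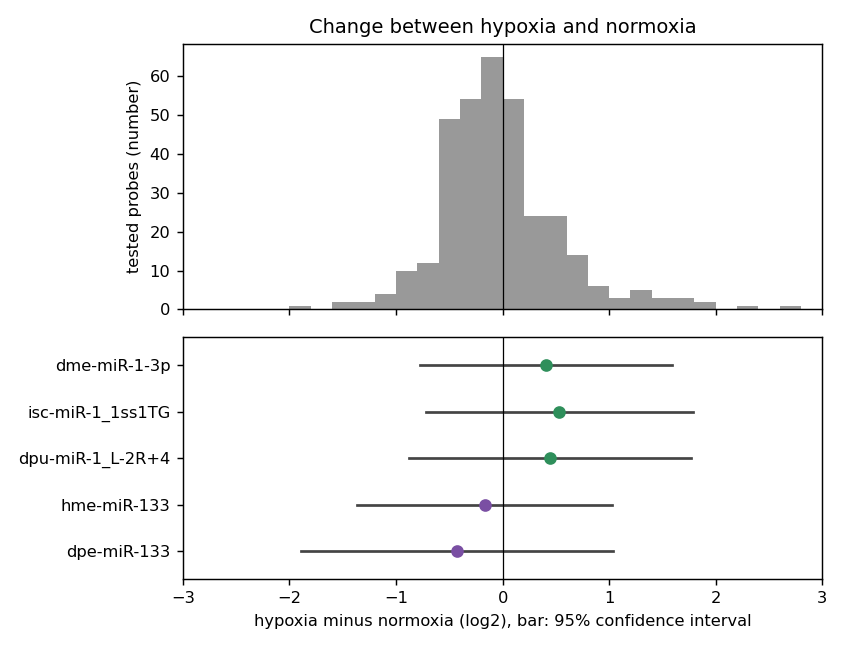
The upper panel counts the 339 tested probes by their change, hypoxia minus normoxia (log2). The lower panel gives the 5 members on the same axis with 95% intervals, miR-1 in green and miR-133 in purple. All 5 intervals include 0, from the change of 0.53 for isc-miR-1_1ss1TG down to -0.42 for dpe-miR-133.

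Whether the 2 miRNAs follow the amount of muscle in each pool could not be asked directly, because no source gives that amount. What could be measured is whether they moved in parallel from array to array. Across the 6 arrays the lead probes gave Pearson's r = 0.69 (exact permutation p = 0.114, two-sided) and Spearman's rho = 0.83 (exact permutation p = 0.0583). Adjusted over the 3 relations computed, these were p = 0.342 and p = 0.175 by exact permutation, so the relation did not pass. Without hypoxia 1 and normoxia 3, the arrays farthest from the median of dme-miR-1-3p, r was 0.44 over 4 arrays. A group of 3 arrays is too small for a value of its own; on deviations from each group's mean, an alternative chosen after seeing the data, r was 0.80.

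Both probes were at their highest on hypoxia 1, 0.67 and 0.79 (log2) above their own means over the 6 arrays for dme-miR-1-3p and hme-miR-133. Both were at their lowest on normoxia 3, at -1.12 and -0.56, although hme-miR-133 stood nearly as low on hypoxia 2, at -0.55. They parted on hypoxia 3, where dme-miR-1-3p was 0.19 above its mean and hme-miR-133 was at -0.49, while dpe-miR-133 was below its detection limit. Hypoxia 3 was also the array least like the others: its r with them across the 339 probes ran from 0.73 to 0.85, and array weights gave it 0.168, against 0.76 to 2.44 for the other arrays. With single arrays left out, r between the lead probes ran from 0.55 to 0.83 over 5 arrays. The lowest was without hypoxia 1 and the highest without hypoxia 3 (exact permutation p = 0.358 and 0.0583, not adjusted). On normoxia 2 hme-miR-133 stood 0.57 above its mean and dme-miR-1-3p 0.07 above. The lead probes thus had the same highest array. No array stood clearly lowest for hme-miR-133, which was at 8.11, 8.11 and 8.17 on normoxia 3, hypoxia 2 and hypoxia 3. Before scaling its lowest reading was on hypoxia 3, at 158.37 above background, and that of dme-miR-1-3p was on normoxia 3.

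**Figure D4:**
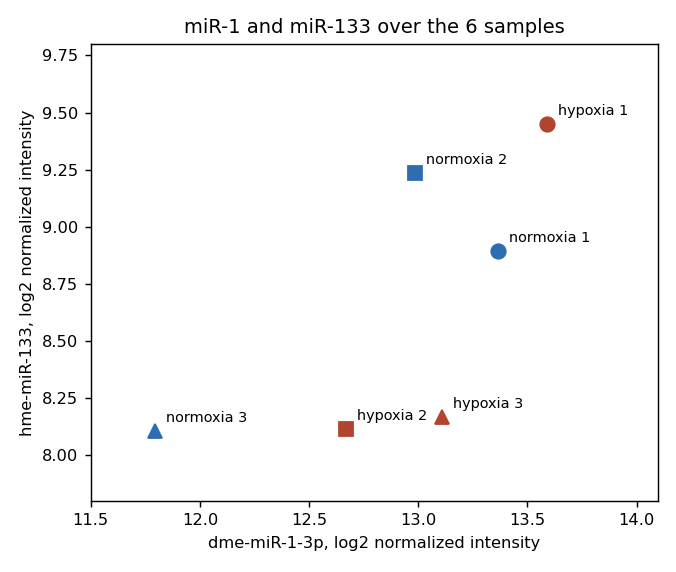
Log2 normalised intensity of hme-miR-133 (vertical) against dme-miR-1-3p (horizontal), 1 point per sample, hypoxia in red and normoxia in blue. Hypoxia 1 is at the upper right and normoxia 3 at the lower left; hypoxia 2 and 3 share the low miR-133 level of normoxia 3 (8.11 and 8.17 against 8.11) at higher miR-1 levels.

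The gap between the lead probes, log2 dme-miR-1-3p minus log2 hme-miR-133, serves here to compare arrays and says nothing of which miRNA is more abundant. It was 4.14, 4.56 and 4.94 on hypoxia 1, 2 and 3, against 4.47, 3.75 and 3.69 on normoxia 1, 2 and 3. The gap varied by 1.25 (log2) over the arrays, or 2.38-fold. It was highest on hypoxia 3 and lowest on normoxia 3. Its mean was 4.55 ± 0.40 in hypoxia and 3.97 ± 0.43 in normoxia (SD, n = 3 each), a difference of 0.58 that did not pass (exact permutation p = 0.2, two-sided, where 3 against 3 cannot go below 0.1).

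Agreement within each miRNA gives a scale for this. Over the 6 arrays, which share their RNA, labelling and scaling between probes, the 3 pairs of miR-1 probes had r from 0.97 to 0.99, and the log2 gap within a pair varied by 0.32 to 0.39. The pair of miR-133 probes had r = 0.89 and a gap that varied by 1.00, or r = 0.93 and 0.60 over the 5 arrays on which both were detected. The 6 pairs of a miR-1 with a miR-133 probe had r from 0.14 to 0.69 and gaps that varied by 1.25 to 2.65. Over the arrays on which both probes of a pair were detected, an alternative chosen after seeing the data, these were 0.46 to 0.69 and 1.25 to 1.76. The miR-1 profile was thus read alike by its 3 probes, and the miR-133 profile less closely by its 2 dimmer ones. Each miR-1 probe had a higher r with the other miR-1 probes than with either miR-133 probe, with or without the reading below the limit. The miR-1 probes are near copies of each other and brighter than the miR-133 probes, so this is no test of whether miR-1 and miR-133 moved differently.

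Among all 338 other tested probes, ordered by Pearson's r with dme-miR-1-3p over the 6 arrays, hme-miR-133 stood at rank 14 and dpe-miR-133, with its reading below the limit, at rank 67, with a median r of -0.08 over the probes that are no members. From the side of hme-miR-133, dme-miR-1-3p stood at rank 8 of 338, where the median r was 0.09. Under 7 other background corrections and scalings, r between the leads ran from 0.52 to 0.73, hme-miR-133 stood at ranks 14 to 46 from dme-miR-1-3p, and dme-miR-1-3p at ranks 7 to 139 from hme-miR-133. The median r over all other tested probes ran from -0.08 to 0.37 with dme-miR-1-3p and from 0.01 to 0.64 with hme-miR-133. Both medians were highest without scaling, where r between the leads was 0.71. These ranks are a description, with no test.

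The probe of another name most like dme-miR-1-3p was mja-miR-6489-3p_L-3R-2_1ss19GA, named after a kuruma shrimp miRNA, at r = 0.97. Its target is shown because it shares neither seed nor overall sequence with miR-1, from which it lies 14 edits away.
mja-miR-6489-3p_L-3R-2_1ss19GA: cGGAAAGGuguccaaacu
It measured 11.30, 9.99 and 10.01 (log2) on hypoxia 1, 2 and 3, against 11.04, 10.36 and 8.45 on normoxia 1, 2 and 3, with the same highest and lowest arrays as miR-1. Over the 7 other corrections and scalings its r with dme-miR-1-3p was 0.907 to 0.998, at ranks 1 to 5. Next came ame-miR-125 at r = 0.89, cqu-miR-2_R+1 at 0.88, tur-miR-276-3p at 0.87 and tca-miR-190-5p at 0.79. Of these, tur-miR-276-3p stayed between 14.26 and 14.49 (log2) on all arrays. Other probes of these miRNAs need not share the profile: aae-miR-276-3p was lowest on hypoxia 1, at 12.27, where miR-1 was highest. For hme-miR-133 the most alike of other names were mse-miR-316 at r = 0.89, tca-miR-279d-3p at 0.83, the same miR-6489 probe at 0.76, nvi-miR-2a_R+1_1ss18TG at 0.74 and ame-miR-190 at 0.69.

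**Figure D5:**
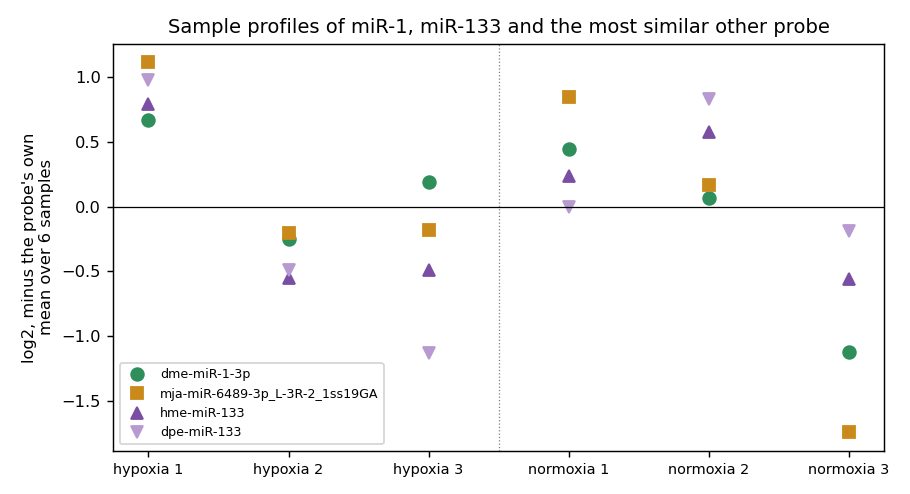
Log2 level of each probe minus its own mean over the 6 samples, for dme-miR-1-3p (green), the miR-6489 probe (orange), hme-miR-133 (purple) and dpe-miR-133 (light purple, below its detection limit on hypoxia 3), hypoxia samples left. miR-1 and the miR-6489 probe are both highest on hypoxia 1 and lowest on normoxia 3; on hypoxia 3 miR-1 is 0.19 above its mean while hme-miR-133 is at -0.49.

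Other miRNAs tied to muscle offered little to set beside them. The vertebrate muscle miRNAs miR-206, miR-208, miR-499 and miR-486 matched 0 probes. Of the miRNAs with roles in fly muscle, miR-9a, miR-92b and miR-277, 5 of 24 probes were tested, 3 above 0 and 2 below, with a median change of 0.41 (log2) beside -0.09 over all tested probes and 0 past the test (limma, 339 probes). Groups did not overlap for 3 of these 5, beside 10% of all tested probes, and not in 1 direction. The probes tca-miR-9a-5p and aae-miR-9a_L+3R-1, which read the same miRNA, were higher in hypoxia, and tca-miR-92b-3p was lower. Here tca-miR-9a-5p, of a miRNA that can repress troponin T in fly flight muscle, changed by 0.41 (-0.13 to 0.94) and had r = 0.64 with dme-miR-1-3p and 0.05 with hme-miR-133. For dme-miR-92b-3p, which in flies tunes the muscle factor Mef2, the change was -0.57 (-1.49 to 0.35), with r = -0.70 and -0.01 with the same leads. These r are of the brightest tested probe of each stem, and r was not computed for the less bright ones. Probes of a stem differed: aae-miR-9a_L+3R-1 had its lowest level, 9.23, on normoxia 1, where tca-miR-9a-5p was at 11.75. No miR-277 probe was detected on more than 3 arrays.

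MicroRNAs tied to other tissues were listed for comparison. The nervous system list, miR-124, miR-137 and miR-219, had 0 of 23 probes tested and none detected on more than 2 arrays. The insect fat body and gut list, miR-8, miR-14, miR-275, miR-278 and miR-281, had 29 of 54 tested, 16 above 0 and 13 below, with a median of 0.01. Of the 29, 0 passed the test (limma), and groups did not overlap for 2. Over the 4 of these stems with tested probes, the brightest, dpu-miR-8_R-1, aga-miR-275_1ss13AT, aae-miR-278-3p_1ss12TC and aae-miR-281-5p, had r of 0.28, -0.38, -0.08 and -0.17 with dme-miR-1-3p. With hme-miR-133 they had -0.27, 0.36, -0.63 and -0.41. The brightest probe need not stand for its stem. While aga-miR-275_1ss13AT changed by -0.62 (log2), aae-miR-275-3p, api-miR-275, dme-miR-275-3p and isc-miR-275_R+2_1ss11GA changed by 1.44, 1.26, 0.86 and 1.39. For the less bright probes of these stems r was not computed.

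The arrays differed in how much they detected and in their calibration spots. They had 443, 908 and 420 probes detected on hypoxia 1, 2 and 3, against 545, 1001 and 342 on normoxia 1, 2 and 3. Added calibration probes named 3M read 10.8%, 7.14% and 1.22% of those named 3P on hypoxia 1, 2 and 3, against 2.58%, 3.73% and 1.87% on normoxia 1, 2 and 3; no source explains the names. Hypoxia 1, highest in miR-1 and miR-133, had the highest such ratio, and hypoxia 3, where dpe-miR-133 was not detected, had the lowest ratio. The log2 ratio had r = 0.36 with dme-miR-1-3p (exact permutation p = 0.496, rho = 0.31, p = 0.564) and r = 0.53 with hme-miR-133 (exact permutation p = 0.286, rho = 0.54, p = 0.297). Adjusted over the 3 relations these exact permutation p-values were 0.496 and 0.429 for r, and 0.564 and 0.446 for rho. Without hypoxia 1 and 3, r was 0.31 and -0.09. Its part in the miR-1 and miR-133 values was not tested beyond a fit with the ratio as a covariate, in which the changes were 0.29 for dme-miR-1-3p and -0.44 for hme-miR-133 (limma, adjusted p = 0.881 and 0.695).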

How the data were processed

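Single-colour arrays of 6 pooled samples were analysed, 3 per group as the titles give them. Median spot intensity, linear, is what the authors deposited for each array, per the file headers; empty spots read above 0, so no background had been removed. Commas that group digits in large values were removed. The deposited value table holds intensity values already subtracted and scaled by the authors, by a method not given in the sources used here, and served as an alternative. Columns of other samples numbered 0.

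Of 3968 spots, 2546 were miRNA probes with 1 spot each. Local background was the median of the 20 nearest of 1130 empty spots. Correction used normexp with an offset of 50 (limma 3.58.1, R 4.3.3), so changes of dim probes come out too small. Then log2 was taken, control spots were removed and arrays were quantile normalised. Probes detected on all 3 arrays of a group (339) were fitted with limma (lmFit and eBayes), with Benjamini-Hochberg adjustment over all of them. The number of arrays limits the precision. Single comparisons and correlations used exact permutation tests (two-sided). The fit was tested on simulated data.

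The rule for named probes took every tested member, untested members by count and range, the 5 most alike tested probes of other names for each lead probe, 1 per stem and arm, and the brightest tested probe of each listed stem. A lead is the member of a miRNA with the highest mean level. Members and lists were chosen with earlier results of these data known. Replicate numbers are shared between groups, but deviations of same-numbered samples correlated at -0.27 to -0.06, so the block served as an alternative. Alternatives covered background, scaling, filter, spread model, weights, block, covariate and single arrays left out.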

Additional observations from a re-analysis of the deposited data

Results flagged for a closer look

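Calibration spots outside the miRNA comparison stood out on 2 hypoxia arrays. Those named 3M read 10.8% of those named 3P on hypoxia 1 and 7.14% on hypoxia 2, while no normoxia array exceeded 3.73%. No source explains the names. Groups of 3 samples were not screened for single outlying values.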

How the results depend on the processing

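The number of probes past the adjusted threshold (limma) was 0 under all 14 alternatives that kept every array and 0 to 1 with single arrays left out; the 1 was tur-miR-281-5p without hypoxia 3, no member, at 2.26 (log2). The change of dme-miR-1-3p was 0.29 to 0.41 under those 14 alternatives and -0.048 to 0.74 with single arrays left out, below 0 without normoxia 3. That of hme-miR-133 was -0.44 to 0.098, above 0 after cyclic loess scaling alone (0.098), and -0.58 to 0.077 with single arrays left out. With single arrays left out, dpu-miR-1_L-2R+4 ran from -0.062 to 0.90, dpe-miR-133 from -0.93 to 0.029 and isc-miR-1_1ss1TG from 0.00091 to 0.89. Under the alternatives that kept every array dpe-miR-133 ran from -0.89 with the calibration covariate to -0.085 after cyclic loess. The number of probes at an unadjusted p under 0.05, 16 in the reported fit, fell to 5 both unscaled and scaled at the 75th percentile. It was 11 under the replicate block, 44 under the covariate, 73 under array weights and 72 among all 2546 probes. Dropping hypoxia 3 gave 61, dropping normoxia 3 gave 9 and dropping normoxia 2 gave 7. Leaving out an array leaves 2 samples in its group, and the cause was not tested further. The gap between the leads changed by 0.20 to 0.84 in all alternatives, and r between them ran from 0.41 (means of the tested probes, chosen after seeing the data) to 0.83 without hypoxia 3, and none of those tested passed.

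With the replicate number as a block the count stayed at 0, with changes of 0.41 and -0.17 for dme-miR-1-3p and hme-miR-133 and a smallest adjusted p of 0.989; no call changed. At a detection limit of 5 standard deviations 4 members met the rule for testing, and at 2 standard deviations 5. Members under the limit have no measured order.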

Other observations

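Some of the array's miR-1 targets, of silkworm and fly, are complementary to each other over most of their length. The target listed as bmo-miR-1b-5p pairs with dme-miR-1-3p over a run of 20 bases, and bmo-miR-1a-5p pairs with bmo-miR-1b-3p over a run of 20. On hypoxia 1, where dme-miR-1-3p was at its highest, bmo-miR-1b-5p read -1.74 above background, and it was detected on 0 of 6 arrays.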
